A study of Mus musculus with 24 samples.

Results

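The descending colon and the jejunum of conventional mice, animals that carry a gut microbiota, were compared on 6 Affymetrix arrays. The members were taken by title: the 3 arrays labelled as conventional descending colon and the 3 labelled as conventional jejunum, out of 24 arrays in the study. The other 18 arrays hold gastric corpus and rectum of conventional mice and all 4 regions of germ-free mice, which carry no microbiota, again 3 arrays a group. Strain, age and sex of the mice are not given in the sources used here, and no allele, drug or other treatment is named. Per the labels the tissue was taken whole, so mucosa, muscle coat and lymphoid tissue were all in the RNA. The jejunum was the small intestine without its first 4 cm and last 2 cm. The descending colon was the upper 2 cm of the last 3 cm of gut, next to 1 cm of rectum. All probe sets but the controls entered, 12422 on each array, and the 9033 with a signal above 51.5 on at least 3 arrays were tested. These carried 1 gene each in 8101 cases and stood for 6650 genes. The values are the authors' linear signal in arbitrary units; a probe set measures a gene against itself on another array, never against another gene.

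The jejunum digests and absorbs. Its villus cells carry hydrolases and transporters on a brush border, pack dietary fat with apolipoproteins into chylomicrons, and sit above Paneth cells, which release antimicrobial proteins into the crypts. The descending colon has no villi and, as a rule, no Paneth cells; its surface cells take up salt and water, exchange chloride for bicarbonate with the help of carbonic anhydrases and live beside a dense microbiota. Position along the gut is held by transcription factors, with GATA and HNF4 factors prominent in the small intestine and posterior Hox genes in the hindgut.

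Of the 6 arrays, the library labelled conventional jejunum 3 went against its label. The summed signal of the 12 measured jejunal markers was 31933 on jejunum 1 and 49060 on jejunum 2 but 1124 on jejunum 3, within the 962 to 1707 of the colon arrays. Summed colonic markers, 12 measured, came to 30975 on jejunum 3, to 26674 to 33660 on the colon arrays and to 12880 and 16711 on jejunum 1 and 2. Over the 9033 probe sets its log2 signals correlated at 0.956, 0.963 and 0.928 with colon 1, 2 and 3, and at 0.848 and 0.841 with jejunum 1 and 2, which correlated with each other at 0.950. The same library carried genes of the exocrine pancreas. Of 14 such genes tested, 13 were highest on it among the 6 arrays and 10 among all 24. Prss2, a trypsinogen, read 7539 on jejunum 3, 9.9 and 151 on jejunum 1 and 2, and 11.5, 2693 and 227 on colon 1, 2 and 3. Cel, the bile salt-activated lipase, read 9421 on jejunum 3, 147 and 297 on the other jejunum arrays, and 215, 2041 and 303 on the colon arrays. Colon 2 was the second highest of the 6 arrays for both, and the part of these transcripts in the results was not tested. Gastric corpus, squamous and enteric neuron marker sums differed little over the 6 arrays, at 202 to 314, 256 to 327 and 509 to 674. Colon 3 had the highest smooth muscle sum, 24334 against 12465 and 13492 on the other colon arrays, 13728 on jejunum 3, and 6872 and 9298 on jejunum 1 and 2. It also alone carried the skeletal muscle actin Acta1, 1094 against 23.9 to 71.8 on the other 5 arrays.

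**Figure D1:**
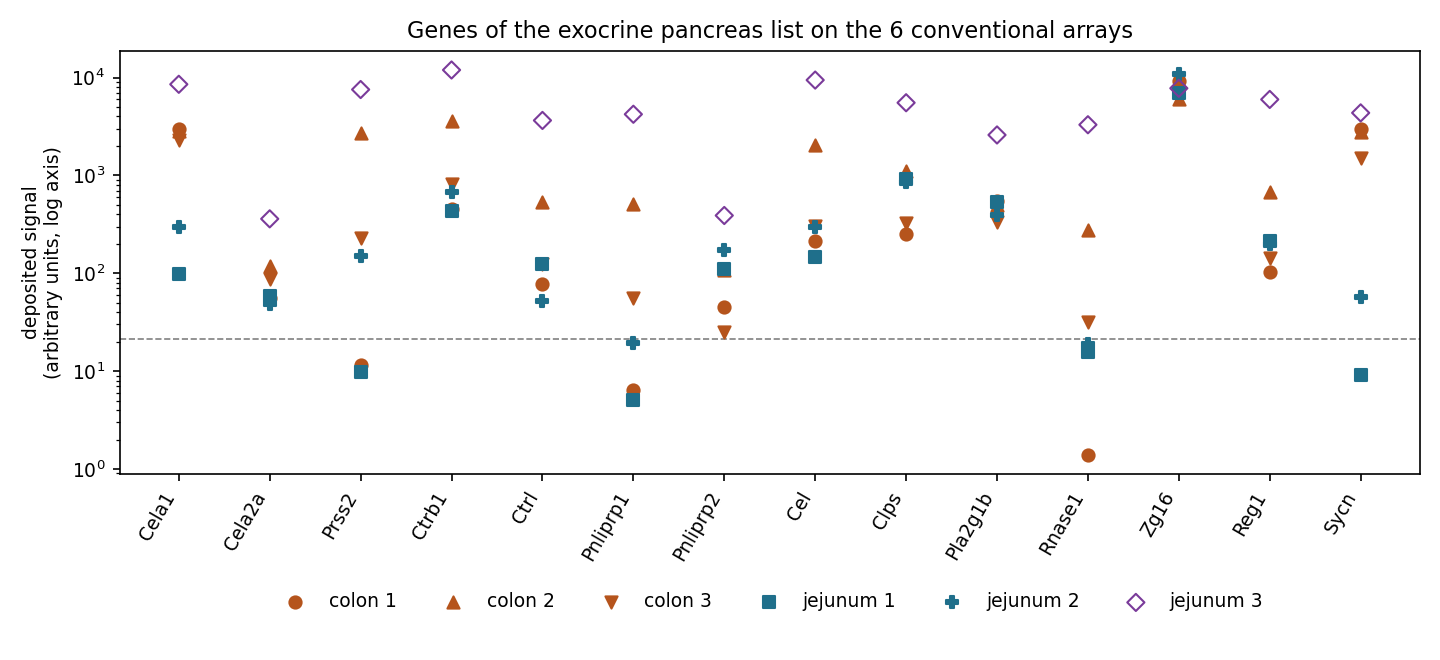
Signal of the 14 tested genes of the exocrine pancreas list (x axis) on each of the 6 conventional arrays (y axis, deposited signal in arbitrary units, log axis; the dashed line is the floor of 21.2). Jejunum 3 lies highest for 13 of the 14 genes, the exception being Zg16, a gene that goblet cells also express; colon 2 is the highest colon array for 10.

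With all 6 arrays as labelled, limma called 0 of 9033 probe sets (0.0%) different between descending colon and jejunum; 989 (10.9%) had an unadjusted p under 0.05, and the lowest adjusted p was 0.400. Apoa4, an apolipoprotein of chylomicrons and the gene of largest difference without jejunum 3, read 5630 and 5207 on jejunum 1 and 2, 13.8 on jejunum 3 and 26.7, 23.2 and 11.3 on the colon arrays, a log2 difference of -5.18 ± 1.63 (SE). The jejunum group spanned both ends of the scale and overlapped the colon group. All colon arrays lay above all jejunum arrays for 558 probe sets (6.18%) and below them for 400 (4.43%).

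Without the library labelled jejunum 3, limma called 540 of 9033 probe sets (5.98%) at an adjusted p under 0.05, 285 (3.16%) higher and 255 (2.82%) lower in descending colon than in jejunum. The median fold of the called probe sets was 3.05 among those higher in colon and 3.82 among those lower. More than 10-fold differences numbered 29 higher and 62 lower. The largest on either side were a signal of Apoa4 229-fold lower and a signal of Car1 91.7-fold higher, a carbonic anhydrase. All 540 had the same sign with all arrays as labelled, at a lowest adjusted p of 0.400. Both readings share the colon arrays and jejunum 1 and 2, so the shared sign is no support for the calls. The library labelled jejunum 3 lay nearer the colon mean than the mean of jejunum 1 and 2 for 281 of the 285. It did so for 251 of the 255 as well, and for 68.2% of all probe sets tested. It was left out because it carries hindgut markers, so this describes that library and lends the calls no support. Apoa4, Apoa1, Fabp2, Rbp2, Lct, Slc5a1, Enpep, Slc51a, Car1, Car2, Aqp8, Cldn8 and Hoxb13 were among the markers summed above. Leaving out an array for such markers widens their differences. Their p-values are therefore not independent of that choice and are no support for it.

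These calls rest on 3 arrays against 2. With a further jejunum array left out, 70 calls were made without jejunum 1 and 7 without jejunum 2; leaving out colon 1, 2 or 3 gave 295, 384 and 191. The spread came from all groups in the study. When only the conventional arrays were fitted, 2 probe sets were called, Fgfr2 and Gsta4, and when the library labelled conventional rectum 1, which correlated best with jejunum 1 (r = 0.966), was also left out, 1188 were called, 535 of the 540 among them. That last fit was chosen after seeing the data. The labels describe regions from the same mice but do not tie single arrays to a mouse, and the p-values speak only of how these arrays vary. In whole tissue, fewer cells of a type and less RNA per cell cannot be told apart.

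**Figure D2:**
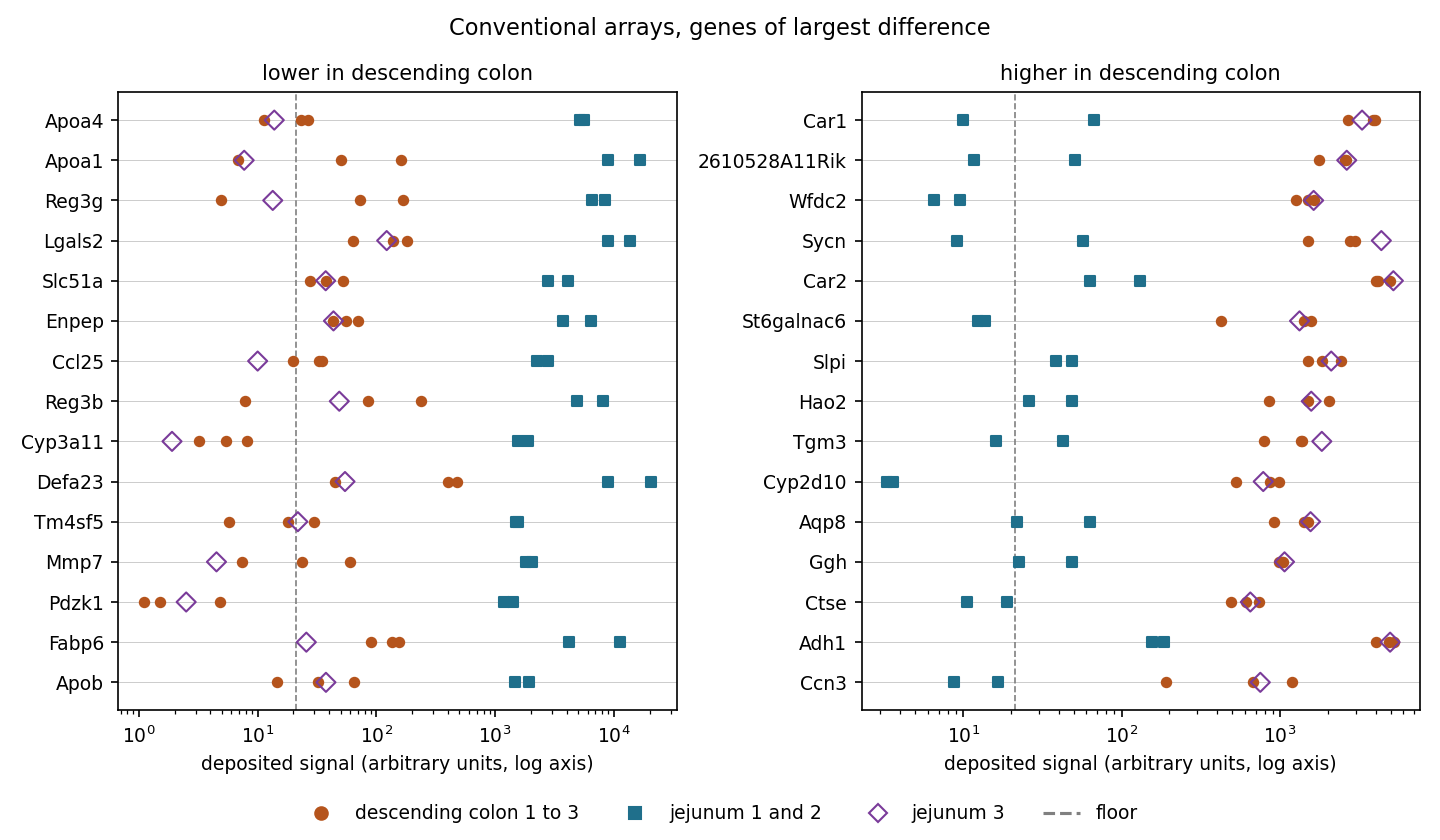
Deposited signal (x axis, arbitrary units, log axis) of the 15 named genes with the largest negative (left) and positive (right) difference, each row a gene; circles are the 3 descending colon arrays, squares jejunum 1 and 2, open diamonds jejunum 3, and the dashed line is the floor of 21.2. Squares and circles stand apart in every row, and the open diamonds lie with the circles, near or beyond them.

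Several genes of fat transport were lower in the colon. On the list of apolipoproteins and chylomicron assembly, 10 of 22 tested genes were called lower and 1 higher, with a median log2 difference of -2.04. Over all 6650 genes, 1 probe set each, 422 (6.35%) were called, 234 (3.52%) higher and 188 (2.83%) lower, and the median was 0.04. The counts of every list below are to be read beside these shares. Apoa1, the main protein of high-density lipoprotein, read 162, 50 and 6.8 on the colon arrays and 8880 and 16567 on jejunum 1 and 2, a difference of -7.77 ± 1.99 (adjusted p = 0.0266). Apoa4 differed by -7.84 ± 1.26 (adjusted p = 0.00372) and lay under 27 on every colon array. Apob, the scaffold of the chylomicron, read 32.3, 65.4 and 14.5 in colon and 1484 and 1928 in jejunum. Mttp, which loads lipid onto Apob, was at the floor on all 3 colon arrays and at 596 and 399 in jejunum, at least 23-fold lower. The enzymes that rebuild triglyceride followed: Dgat1 was 11.1-fold lower and Mogat2 was also called lower, at -2.72. Fabp2, the intestinal fatty acid carrier, read 243, 799 and 111 against 6163 and 13283. Apoa1 ranged from -8.54 without colon 1 to -7.08 without colon 3, and Fabp2 from -5.78 without colon 2 to -4.36 without colon 3. The exception was Apoe, made by macrophages among other cells, which was 3.39-fold higher in colon. Fabp1, the liver-type carrier, read 3.2, 1.5 and 3.5 in colon and 224 and 35.6 in jejunum and was not called (adjusted p = 0.0825).

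Some brush border enzymes were also lower in colon. Of 17 tested hydrolases 7 were called lower and 1 higher, median -2.11. Lct, lactase, read 24.4, 21.0 and 30.5 on the colon arrays and 1340 and 694 on jejunum 1 and 2, a difference of -5.26 ± 0.79 (adjusted p = 0.00372). Among the 113 called probe sets, of 112 genes, that the naming rule covers, only Lct kept its call with any of the 5 arrays left out. The Lct estimate was -4.79 without jejunum 1 and -5.74 without jejunum 2. When only the conventional arrays were fitted, 0 of the 113 kept their call, so Lct lost its call too. Anpep, aminopeptidase N, was 44.4-fold lower, Vnn1, a pantetheinase, 20.4-fold, and Mme, neprilysin, at least 17.8-fold. Enpep, glutamyl aminopeptidase, read 43.3, 55.8 and 70.6 against 3722 and 6452 on one probe set, while a second probe set for the gene read 315, 242.5 and 271 against 251 and 194 and was not called. The member that was higher in colon was Prss8, the channel-activating protease prostasin, at 6.29-fold (log2 2.65; 3.36 without jejunum 1 and 1.95 without jejunum 2). Of 13 genes of brush border structure 3 were lower: Lgals2, a lactose-binding lectin, Pdzk1, a scaffold for apical transporters, which was at least 60.9-fold lower, and the related scaffold Slc9a3r1. Lgals2 read 138, 180 and 63.3 against 8901 and 13711. Vil1, villin, read 679 to 1165 in colon and 3009 and 4427 in jejunum and was not called (adjusted p = 0.153).

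Genes of sugar and amino acid handling were called as well. Of 17 genes of carbohydrate digestion and metabolism 6 were lower and 1 higher. Slc5a1, the sodium-glucose cotransporter, read 221, 320 and 301 in colon and 1774 and 1700 in jejunum, a 6.27-fold difference that left no overlap. Slc2a2, the basolateral glucose and fructose carrier, was at the floor on every colon array and at least 5.04-fold lower, and the gluconeogenic enzymes G6pc and Fbp1 were 5.33-fold and at least 7.96-fold lower. Slc2a1, the general glucose carrier, went the other way, at 2.66 on the log2 scale. For amino acid and peptide uptake 4 of 15 genes were lower, all carriers: Slc7a9, Slc7a8, Slc7a7 and Slc6a20b, between -4.18 and -2.41. In the urea cycle and arginine list 5 of 20 were lower and 1 higher. Cps1, which makes carbamoyl phosphate, read 148, 127 and 124 in colon and 3823 and 3651 in jejunum, Arg2 was 27.2-fold lower and Otc 10-fold lower; the member that was higher was Bcat2, of branched-chain amino acid breakdown.

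For bile acids and sterols, 3 of 19 genes (15.8%) were lower and none higher, beside 6.35% of all genes called. Slc51a, part of the basolateral bile acid exporter, read 37.3, 52.0 and 27.6 in colon and 2780 and 4139 in jejunum. Fabp6, the cytosolic bile acid carrier of the ileum, read 136, 155 and 90.2 against 4220 and 11291, a difference of -5.80 that was -6.51 without jejunum 1 and -5.09 without jejunum 2. Slc10a2, the apical bile acid importer of the ileum, read 28.4 and 87.5 in jejunum, under 5 on every colon array, and was not called (adjusted p = 0.251). Retinol handling gave 2 lower genes of 11, Rbp2 at 9.87-fold and Rdh7 at 10.2-fold, and 1 higher, Adh1. Of 22 genes for minerals and vitamins 13.6% were called, beside 6.35% of all genes. These were Cubn, the cobalamin-intrinsic factor receptor, and Slc34a2 and Slc20a1, both phosphate carriers. A second Cubn probe set stood at 0.15, against -5.09 for the called one, and was not called. The phosphate carriers lay on opposite sides: Slc34a2 read 270, 251 and 172 in colon and 2660 and 2942 in jejunum, and Slc20a1 read 1776, 1421 and 1187 in colon and 107 and 123 in jejunum.

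Genes of xenobiotic metabolism were called in both directions, with 8 of 52 genes lower and 6 higher in colon and a median of 0.14. The lower ones included Cyp3a11, Cyp3a13, Cyp3a25 and Cyp2b10, cytochromes P450 of drug oxidation. Cyp3a11 was at 3.2 to 8.2 on the colon arrays and at 1545 and 1874 on jejunum 1 and 2, at least 80.2-fold lower. Those higher in colon included Cyp2d10, the glutathione transferases Gstm1 and Gstm2 and the sulfotransferase Sult1a1. A second Gstm2 probe set stood at -0.28 on the log2 scale and was not called. Cyp2d10 read 986, 525 and 867 in colon and 3.3 and 3.6 in jejunum, at least 36.1-fold higher, while its near relative Cyp2d26 was lower, at -3.37.

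Some antimicrobial genes were lower in colon. Of 22 tested genes of Paneth cells and antimicrobial proteins 9 were called lower and 1 higher, with a median of -0.71; the other 12 were not called. Reg3g, a lectin that kills Gram-positive bacteria, read 73.2, 169 and 4.9 in colon and 6519 and 8385 in jejunum, a difference of -6.85 ± 1.41 (adjusted p = 0.00906). Both probe sets named Reg3b and both named Reg3a were lower as well, though RNA of family members can bind each. Mmp7, the protease that activates Paneth cell defensins, read 7.4, 23.8 and 59.6 against 1812 and 2048, and the defensin probe set Defa23 read 401, 481 and 44.4 against 8853 and 20672. Without colon 2 the estimates were -7.55 for Reg3g and -6.66 for Defa23, and without colon 3, the lowest array for both, -6.05 and -4.95; without jejunum 1 and 2 Defa23 stood at -6.66 and -5.43. The member that was higher in colon was Slpi, a secreted protease inhibitor, whose brightest probe set read 2381, 1704 and 1402 in colon and 211 and 242 in jejunum, 7.91-fold higher. A second Slpi probe set was 43.6-fold higher and a further 2 were not called, at 1.00-fold and 1.17-fold. Pla2g2a, a Paneth cell phospholipase, read 2303, 4165 and 1183 in colon and 8738 and 14330 in jejunum and was not called.

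Carbonic anhydrases and a water channel, all on the marker list that put jejunum 3 in doubt, were among the genes higher in colon. Of 37 tested genes of colonic ion and water transport 4 were called higher, Car1, Car2, Aqp8 and Hsd11b2, and 1 lower, Guca2b. That is 13.5% of the list, beside 6.35% of all genes, and the median was 0.12. Car1 read 3974, 3834 and 2683 on the colon arrays and 10 and 66.5 on jejunum 1 and 2, a difference of 6.52 ± 1.72 (adjusted p = 0.0298). Car2 read 4941, 4056 and 4155 against 62.7 and 132, a 48.1-fold difference. Aqp8, an aquaporin of the colonic surface, was 33.7-fold higher, and Hsd11b2, which protects the mineralocorticoid receptor from glucocorticoids, 18.6-fold. Car4 read 2912 to 3817 in colon and 954 and 619 in jejunum, without overlap, and was not called (adjusted p = 0.244). Guca2b, uroguanylin, read 271, 398 and 158 in colon and 2538 and 2980 in jejunum. Without jejunum 1 the estimates were 5.70 for Car1, 4.32 for Aqp8 and 3.42 for Hsd11b2, and without jejunum 2 they were 7.34, 5.83 and 5.01, none of them called. A second Hsd11b2 probe set was at the floor in colon and was not called. With any one colon array left out, this list held 1 higher call.

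The other large differences came from genes of many kinds. Wfdc2, a secreted protein with antiprotease domains, read 1631, 1509 and 1264 in colon and stayed at the floor in jejunum, at least 68.9-fold higher. Hao2, a peroxisomal oxidase of hydroxy acids, read 1505, 2028 and 855 against 26.2 and 48.6. Adh1, an alcohol dehydrogenase that also oxidises retinol, read 5262, 4032 and 4872 against 156 and 186. Tgm3, a transglutaminase, was 37.9-fold higher and Ggh, a lysosomal hydrolase of folate polyglutamates, 30.6-fold higher. Sycn, a zymogen granule protein on the pancreas list, read 2963, 2755 and 1491 against 9.1 and 56.7; unlike Prss2 it was high on all 3 colon arrays. Cela1, an elastase on the same list, did likewise, at 2951, 2866 and 2324 against 99.2 and 300. Without jejunum 1 the estimates of Sycn and Cela1 were 5.34 and 3.17, and without jejunum 2 they were 6.76 and 4.77. Of 3 tested probe sets of cathepsin E, Ctse, 1 was called, with 607, 740 and 488 in colon and 19.0 and 10.5 in jejunum.

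Enzymes that build mucosal glycans were called in both directions, 3 of 29 higher and 3 lower. The sialyltransferases St6galnac6, St6galnac4 and St3gal6 were higher in colon. St6galnac6 read 1421, 1577 and 426 against 13.8 and 12.4, at least 46.4-fold higher, or 6.14 on the log2 scale without colon 3. The transferases of N-acetylgalactosamine B4galnt2, B4galnt1 and Galnt1 were lower; B4galnt2 read 39.1, 84.5 and 49.2 in colon and 1458 and 1763 in jejunum. Of 19 goblet cell, mucin and trefoil genes, Wfdc2 was the single one called, 5.26% beside 6.35% of all genes. Tff3, the goblet cell trefoil peptide, read 9925, 6291 and 10681 in colon and 7451 and 13165 in jejunum, and Zg16, a goblet cell lectin, 9136, 6025 and 7000 against 6935 and 10755; the ranges overlapped in both. Itln1, an intelectin, read 109 and 107 on colon 1 and 3 but 5052 on colon 2, against 6153 and 9843 in jejunum, and was not called.

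Some endodermal and Hox transcription factors were called, 11.1% and 8.7% of those tested, beside 6.35% of all genes. Of 36 tested endodermal and epithelial factors, Gata5, Hnf4g and Maf were lower in colon and Foxa1 was higher. Gata5 lay under 11 on every colon array and at 170 and 197 in jejunum, at least 8.61-fold lower; Hnf4g read 48.7 to 66.0 against 241 and 408. Gata4 read 115 to 175 in colon and 276 and 179 in jejunum and was not called (adjusted p = 0.522), and neither was Cdx1, at 552 to 913 against 437 and 478, nor Cdx2, at 5.8 to 79.4 against 112 and 105. Of 23 Hox genes tested, 2 were called, both higher in colon. Hoxa13 read 128, 128 and 136 in colon and 6.2 and 18.7 in jejunum, at least 6.17-fold higher, and Hoxa3, of an anterior group, 75.6, 86.6 and 56.8 against 7.7 and 27.2. Hoxb13 read 1728, 1478 and 1543 in colon and 43.8 and 109 in jejunum, 22.8-fold apart with no overlap, at an adjusted p of 0.0629. The 7 genes of paralog groups 9 to 13 had a median difference of 1.54, with 6 above 0. The 16 genes of groups 1 to 8 had a median of 0.20, with 10 above 0. Colon arrays all lay above both jejunum arrays for 5 of the 7 and 3 of the 16, beside 21.4% of all probe sets tested.

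**Figure D3:**
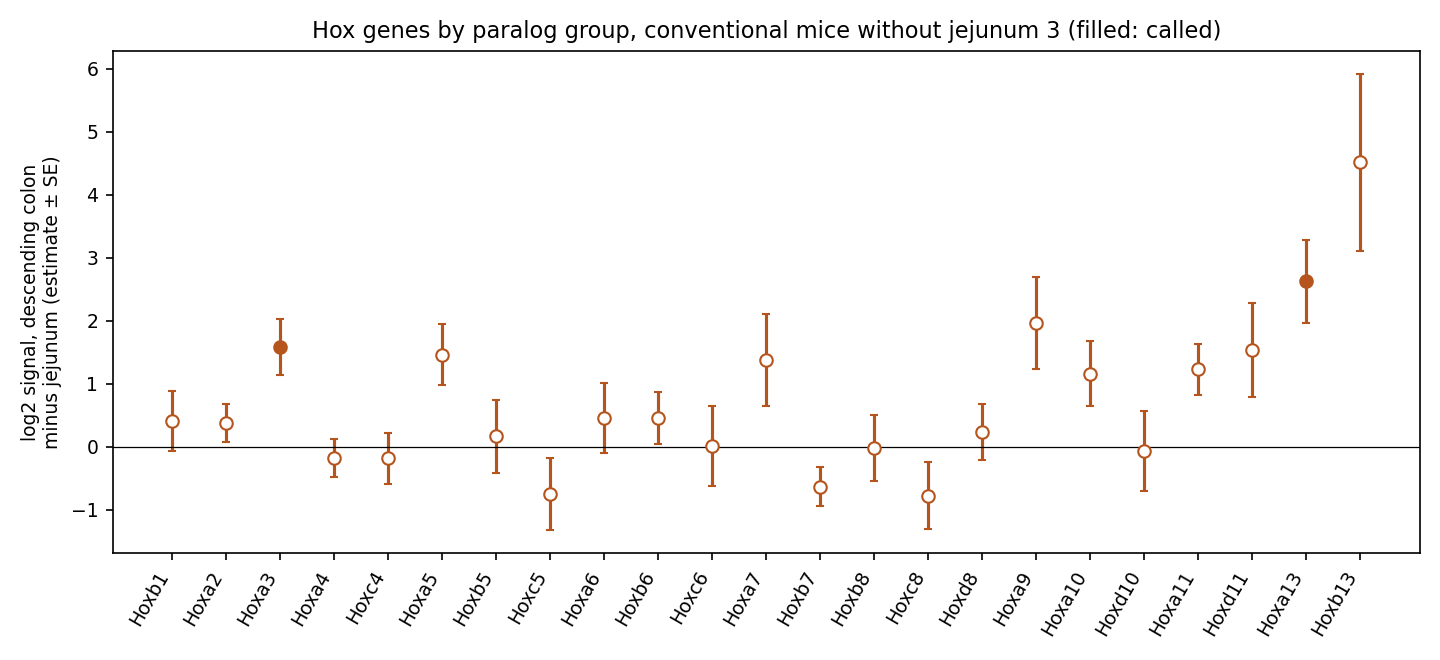
Log2 difference in signal, descending colon minus jejunum without jejunum 3 (y axis, estimate ± SE from limma, 3 against 2 arrays), for the 23 tested Hox genes ordered by paralog group (x axis); filled circles passed an adjusted p of 0.05. Hoxb13 and Hoxa13, the most posterior genes tested, have the highest estimates, 4.51 and 2.62.

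Promoters of 4 genes from both ends of the comparison are shown because they hold short letter strings named for such factors. They come from RefSeq on build GRCm38.p6, 250 bases before to 50 after the start. They were picked after seeing the matches, from the 15 genes of largest difference each way. Of the genes with only 1 promoter found, the 2 on each side with most kinds of motif were taken. Capitals mark matches on either strand. For GATA factors the letters searched were AGATAA. For CDX factors they were TTTATG. HOXB13 was searched as CAATAAA and also as TCGTAAA. The HNF4 letters were CAAAGTC. The HNF1 letters were GTTAAT. None of these words holds another. Lgals2 lies at chr15:78855480-78855779 and Fabp6 at chr11:43601513-43601812, both on the minus strand and lower in colon. Hao2 lies at chr3:98893181-98893480 on the minus strand and Adh1 at chr3:138277335-138277634 on the plus strand, both higher in colon.
Lgals2: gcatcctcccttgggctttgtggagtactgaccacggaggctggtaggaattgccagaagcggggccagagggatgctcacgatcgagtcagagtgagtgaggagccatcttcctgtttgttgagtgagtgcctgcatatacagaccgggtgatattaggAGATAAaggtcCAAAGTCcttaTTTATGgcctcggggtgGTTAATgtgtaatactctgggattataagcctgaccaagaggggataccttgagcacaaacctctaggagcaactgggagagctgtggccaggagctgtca
Fabp6: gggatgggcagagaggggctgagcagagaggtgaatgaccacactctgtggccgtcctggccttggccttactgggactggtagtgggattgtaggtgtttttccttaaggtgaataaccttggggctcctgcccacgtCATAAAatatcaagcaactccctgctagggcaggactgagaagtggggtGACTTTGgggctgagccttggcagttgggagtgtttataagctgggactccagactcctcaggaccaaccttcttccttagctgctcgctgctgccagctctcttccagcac
Hao2: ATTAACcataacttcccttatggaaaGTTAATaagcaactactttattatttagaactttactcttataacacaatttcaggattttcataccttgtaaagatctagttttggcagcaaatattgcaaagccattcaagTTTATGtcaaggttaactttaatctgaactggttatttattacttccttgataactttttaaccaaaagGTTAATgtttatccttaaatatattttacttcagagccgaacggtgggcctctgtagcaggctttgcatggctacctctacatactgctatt
Adh1: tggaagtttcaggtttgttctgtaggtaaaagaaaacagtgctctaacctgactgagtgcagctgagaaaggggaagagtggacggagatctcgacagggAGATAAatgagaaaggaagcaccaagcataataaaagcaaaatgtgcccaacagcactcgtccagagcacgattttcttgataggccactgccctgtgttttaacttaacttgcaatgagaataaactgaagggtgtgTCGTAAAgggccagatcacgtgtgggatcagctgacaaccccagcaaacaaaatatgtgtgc

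In Lgals2 a match to GATA, HNF4, CDX and HNF1 letters each began between positions -90 and -51 from the start. Promoters were found for 153 of the 188 genes lower in colon, 183 of the 234 higher and 5323 of the 6650 tested. AGATAA was in 9.84% of promoters of genes lower in colon, 5.39% of those higher and 6.55% of those of all tested genes (11.2% of all promoters in the table). CAAAGTC was in 6.74%, 3.32% and 3.96% (4.44%), and GTTAAT in 7.25%, 5.39% and 4.78% (7.10%). TTTATG was in 9.84%, 7.05% and 7.14% (11.9%). The HOXB13 words were in few promoters, CAATAAA in 1.04%, 2.90% and 2.52% (4.60%) and TCGTAAA in 0%, 0.83% and 0.60% (0.60%). These shares are a description without a test, and a match is not a site of binding.

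Gut hormone genes gave 2 calls of 19, or 10.5% beside 6.35% of all genes, 1 in each direction. Gip, the incretin of proximal small intestine, read 17.2, 41.0 and 23.1 in colon and 654 and 535 in jejunum, a difference of -4.44 ± 0.80 (adjusted p = 0.00594). Tph1, which makes serotonin in enterochromaffin cells, read 103, 118 and 69.9 in colon and stayed at the floor in jejunum, at least 4.46-fold higher. A second Tph1 probe set was at the floor in both regions and was not called. Cck read under 10 in colon and 259 and 152 in jejunum and was not called (adjusted p = 0.0577); Gcg, the proglucagon gene, read 50.2 to 94.1 against 77.2 and 70.1.

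Some matrix genes were higher in colon. Of 44 tested genes of fibroblasts and matrix 12 were called higher and 0 lower, with a median of 0.81 and 41 estimates above 0. The 12 were Col1a2, Col3a1, Col4a1, Col5a2, Col6a1, Col6a3, Bgn, Sparc, Postn, Timp3, Mfap5 and Fbln2. A second probe set of Bgn, Col6a1 and Mfap5 stood at 0.79, 0.73 and 1.13 and was not called for any of them. Postn, periostin, read 1123, 824 and 1033 in colon and 136 and 234 in jejunum, a difference of 2.47 ± 0.55 (adjusted p = 0.0140). Col5a2 read 473 to 484 against 90.2 and 179. Of 18 smooth muscle genes 2 (11.1%) were called, beside 6.35% of all genes, and 15 estimates lay above 0. Tagln and Smtn were the 2, higher at 3.65-fold and 4.06-fold. Myh11, smooth muscle myosin, read 1965, 2012 and 4678 against 1267 and 1794 and was not called. The summed smooth muscle signal given above was likewise higher in colon, and so was that of 3 adipocyte markers, at 420, 322 and 840 in colon and 174 and 241 in jejunum. The part of either in the matrix result was not tested. Of 12 genes on the adipocyte list 0 were called by limma (7 at an unadjusted p under 0.05), with a median of 0.83. The matrix list held 2 calls without colon 3, 3 without colon 1, 0 without jejunum 1 or 2, and 6 with array medians equalised. Bmp4, a mesenchymal growth factor, was 2.15-fold higher and Egf at least 2.96-fold. A second Bmp4 probe set stood at 0.98 on the log2 scale and was not called.

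Shares called on the immune lists ran from 0% to 30%, beside 6.35% of all genes tested. Of 29 tested genes of macrophages, dendritic cells and granulocytes 1 was higher and 1 lower, and of 27 interferon response genes 1 was lower. Ccl25, the chemokine that draws lymphocytes to the small intestine, read 34.5, 32.7 and 20 in colon and 2244 and 2805 in jejunum. It was 87.1-fold lower in colon and the single call of 15 tested on the T and NK cell list. The other genes of that list were not called. None of 19 genes of B and plasma cells and IgA transport was called by limma, and none of 12 of MHC class II, with 0 and 3 at an unadjusted p under 0.05. Igha, the IgA heavy chain, read 2953, 3782 and 1267 in colon and 7217 and 10219 in jejunum (adjusted p = 0.524), and Pigr, the IgA carrier, 10771, 7035 and 10465 against 8838 and 13713. H2-Aa, of MHC class II, read 568 to 1361 in colon and 3271 and 2862 in jejunum and was not called (adjusted p = 0.139). Genes on the mast cell list were called both ways, and which cells of the whole tissue gave their signal was not tested. The mucosal protease Mcpt2 was 6.35-fold lower. Tpsb2, a tryptase of connective tissue mast cells, was 3.68-fold higher, and Kit 2.20-fold higher. The Tpsb2 estimate of 1.88 became 1.13 without jejunum 2 (adjusted p = 0.366 in limma) and 2.63 without jejunum 1, and its second probe set stood at -0.29 and was not called. Of 45 genes of crypt stem cells and proliferation 0 were called by limma (13 at an unadjusted p under 0.05); their median was -0.51 and 10 estimates lay above 0. Among claudins, Cldn8 and Cldn5 were higher in colon, at 7.46-fold and at least 3.76-fold, and Cldn4 3.29-fold lower.

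**Figure D4:**
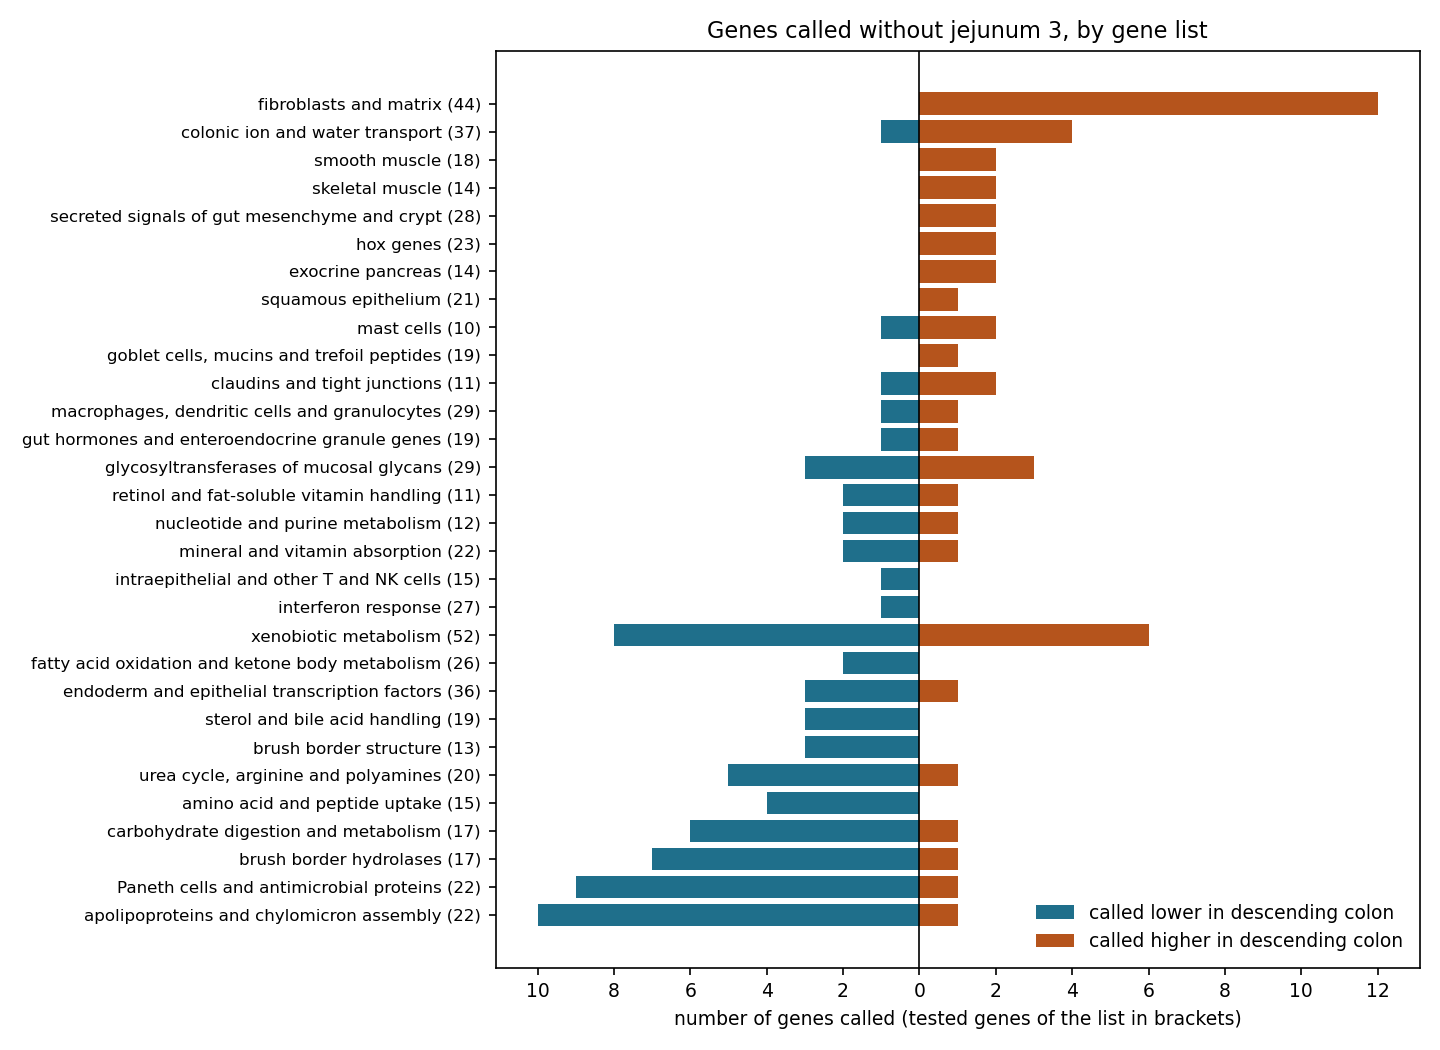
Number of genes called lower (bars to the left) or higher (to the right) in descending colon than in jejunum without jejunum 3, for each gene list with a call; the number of tested genes is in brackets. Lists of absorption and antimicrobial defence extend to the left, led by 10 of 22 for apolipoproteins and chylomicron assembly, and the matrix list extends to the right with 12 of 44.

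Germ-free mice gave the same comparison on 6 other arrays. These did not enter the conventional estimates but helped set the floor, filter and spread, and so the calls. In them limma called 1280 of 9033 probe sets (14.2%), 812 (8.99%) higher and 468 (5.18%) lower in descending colon. Of the 285 probe sets higher in conventional colon, 281 had a positive germ-free estimate, beside 62.3% of all tested, and 191 were also called higher. Of the 255 lower ones, 249 had a negative estimate, beside 37.4% of all, and 184 were also called lower. No probe set was called in opposite directions. Lct read 20.8, 28.6 and 50.4 in germ-free colon and 5929, 3221 and 2093 in germ-free jejunum, and Car1 6818, 3124 and 1861 against 8.2, 5.2 and 6.6, so the groups did not overlap. Germ-free colon 3 and the library labelled germ-free corpus 3 correlated at 0.987, the highest of any pair in the study, and germ-free colon 1 read 4005 for Fabp2 and 112 for Hoxb13, against 1182 and 894, and 1082 and 1375, on the other germ-free colon arrays. The part of these libraries in the germ-free values was not tested.

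**Figure D5:**
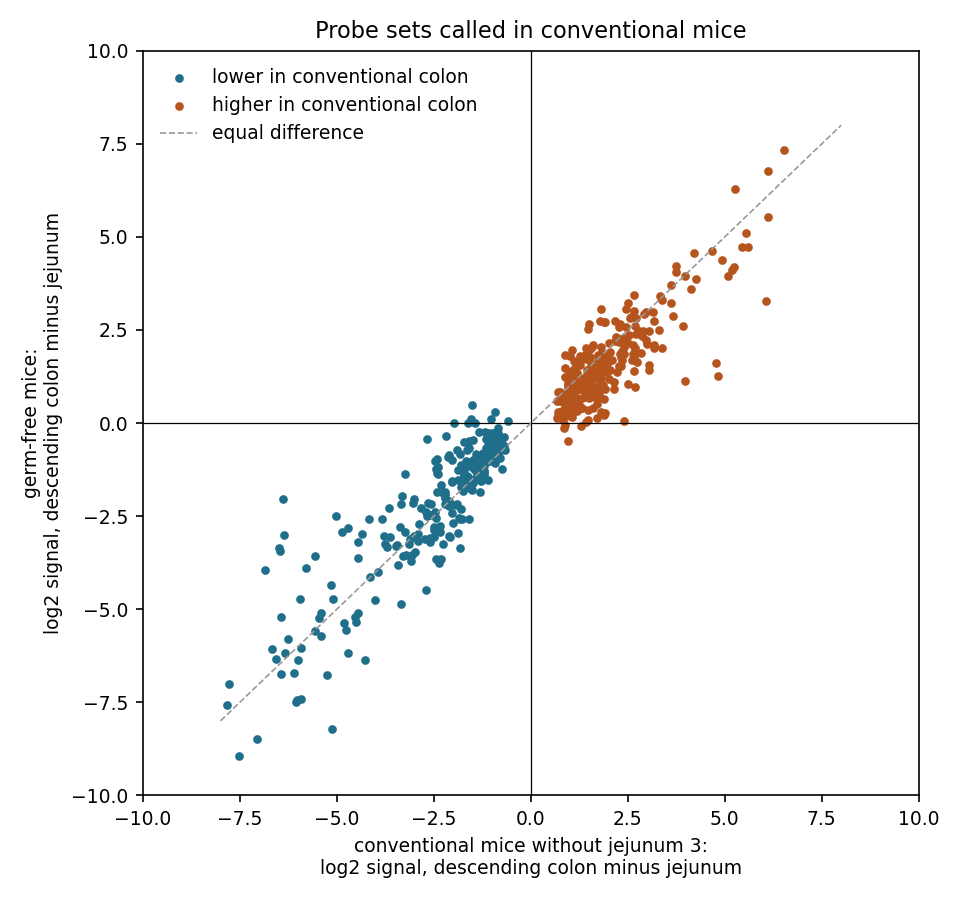
Log2 difference in signal, descending colon minus jejunum, in conventional mice without jejunum 3 (x axis) and in germ-free mice (y axis), for the 540 probe sets called in conventional mice; the dashed line marks equal differences. All but 10 points have the same sign on both axes.

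A difference between germ-free and conventional mice in the size of the regional contrast was tested as an interaction. Without jejunum 3, 0 of 9033 probe sets (0.0%) passed in limma (582 did before adjustment, at 0.05); with all arrays 1 did (0.0111%). Some genes of the conventional contrast had smaller germ-free estimates, none past the threshold for the interaction. The genes were selected by their conventional call, which favours large conventional estimates, so smaller germ-free ones are no result. Among probe sets called higher the median log2 difference was 1.61 in conventional and 1.28 in germ-free mice. Among those called lower the medians were -1.93 and -1.67. Reg3b differed by -6.40 (-7.23 without colon 2, -5.48 without colon 3) in conventional and -2.03 in germ-free mice (interaction adjusted p = 0.769), with germ-free jejunum at 538, 1106 and 1225 and conventional jejunum 1 and 2 at 4932 and 8146. Adh1 differed by 4.78 and 1.60 (interaction adjusted p = 0.769), with germ-free jejunum 1 at 2616 and the other germ-free jejunum arrays at 624 and 401. Mcpt2 differed by -2.67 and -0.44 (interaction adjusted p = 0.769).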

How the data were processed

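Total RNA of whole tissue was hybridised to 24 single-channel Affymetrix arrays. The deposited table gives a linear signal intensity per probe set and array; the mean of the middle 96% of values was 200.1 on every array, so the authors' intensities were taken as already scaled. The sources used here do not name the signal software. The values were not scaled again. Before log2, intensities below 21.2, the 25th percentile over all arrays, were raised to it as a floor. Folds are on this scale, with "at least" where the dimmer group never left the floor. Probe sets above 51.5 (40th percentile) on at least 3 arrays were tested, 66 controls aside.

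Group means of all 8 groups were fitted in limma 3.58.1 (R 4.3.3, statmod 1.5.0) with eBayes and an intensity trend, with all 24 arrays and with 23; p-values are two-sided and Benjamini-Hochberg adjusted over 9033 probe sets, called under 0.05. The fit was tested on simulated data. Array number limits the precision. The fit used no pairing of arrays by number. Deviations of same-numbered arrays correlated at 0.056, 0.056 and 0.049. These deviations include the jejunum library that went against its label, so they cannot decide whether the numbers are a pairing.

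Genes named are the 15 of largest difference each way, a fixed set, every Hox gene, and up to 6 of lowest p per list. Lists count 1 probe set a gene, the brightest; symbols come from the platform annotation, where 10855 probe sets list 1 gene, 396 several and 1237 none. Sis, Slc26a3, Scnn1b, Muc2, Pyy and Lyz1 had no probe set naming them alone. Prss2, Pla2g2a, Mogat2, Slc2a1, Cyp2d26 and other genes outside this rule were named, after their values were seen, to complete a count or show a contrast. The members and the 38 gene lists were chosen with earlier results of these data known. Alternatives covered the arrays fitted, scaling, floor, filter, variance model, block and single arrays left out.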

Additional observations from a re-analysis of the deposited data

Results flagged for a closer look

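Slc5a11, a sodium-coupled myo-inositol transporter, was the single gene whose regional difference was larger in germ-free than in conventional mice by a test of the difference, with all arrays as labelled (interaction -2.67 ± 0.415 on the log2 scale, limma adjusted p = 0.0254). It read 10.8, 18.6 and 24.6 in germ-free colon and 202, 97.3 and 185 in germ-free jejunum. In conventional mice it read 22.4, 16.7 and 21.5 in colon and 28.4, 21.7 and 19.4 in jejunum, at or near the floor on all 6 arrays. Without jejunum 3 the interaction was -2.59 and its adjusted p 0.143, so the call was lost.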

How the results depend on the processing

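As labelled, 1 probe set was called without a filter, 540 without jejunum replicate 3 and 1039 without 3 libraries. These 3 were jejunum 3, conventional rectum 1 and germ-free corpus 3. Each correlated best with an array of another region, but so did all conventional colon arrays and conventional jejunum 1 and 2. All other settings gave 0, and single arrays left out gave 0 to 540. Without jejunum 3, the 540 calls became 1039 without these 3 libraries, 2 with conventional arrays only, 1188 when rectum 1 was also left out, 331 with no filter, and 7 to 384 with a further array left out; other settings gave 439 to 730. With array number as a replicate block the count was 320 (fixed) and 635 (random); of the 113 named probe sets called, 75 kept their call under the fixed block. Deviations of same-numbered arrays correlated at 0.056, 0.056 and 0.049 and of others at -0.049 to 0. Each array thus correlated best with its own number. These deviations include jejunum 3, which went against its label, so they cannot decide whether the numbers are a pairing. Without jejunum 3 the block correlation was 0.100, a hint from the data, not the design. The cause of these changes was not tested, beyond the arrays left out. The interaction count of 1 as labelled was 0 with colon and jejunum groups only, without the 3 libraries, with the floor at the 10th percentile, the stricter filter, the filter on the arrays compared, or the fixed block, 2 with the higher floor (Abcc2 added), 6 without a filter, 3 without rectum 1 and corpus 3 (Saa2 and Dmbt1 added), and 0 to 2 with single arrays left out. Without jejunum 3 it was 0, but 1 with colon and jejunum groups only (Saa2), quantile normalization or no intensity trend (Slc5a11), 2 with the higher floor and 7 without a filter. None of the 113 named and called probe sets, of 112 genes, changed sign under any setting; 17 moved by over 1.5 times with some single array left out. Signals near the floor of 21.2 bound folds but do not measure them.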

Other observations

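The values of 4 genes of the oxidation of sulfur compounds, singled out after they were seen, follow as a description. Sqor, which oxidises sulfide in mitochondria, read 1130, 1351 and 843 in descending colon and 90.5 and 231 on jejunum 1 and 2, a difference of 2.91 ± 0.61 (limma adjusted p = 0.00969). Ethe1, a persulfide dioxygenase, read 7267, 5382 and 3902 against 772 and 1029. Tst, the thiosulfate sulfurtransferase rhodanese, read 930, 760 and 611 against 111 and 94.9, and Selenbp1, a methanethiol oxidase, 3845, 2876 and 3670 against 170 and 190. They were picked because they were higher, so their agreement in direction is no result. Their germ-free differences were 2.93, 2.86, 2.35 and 3.87, in the same order.

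A few single genes were also chosen after their values were seen. The endothelin gene Edn1 was higher on both its probe sets, at 2.96 and 2.53, and Il1rn, the interleukin 1 receptor antagonist, at 3.17. Dnase1, a secreted nuclease, read 4.4, 5.9 and 4.1 in colon and 1542 and 518 in jejunum, a difference of -5.40 ± 0.85 (adjusted p = 0.00372).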
